A study of Mus musculus with 2 samples.

Results

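The 42 genes described here act in the cell division cycle, and their RNA was measured in adrenal glands of mice at 14 days after birth. They were chosen by name: each symbol was matched to the gene symbol in the 6th field of the transcript identifiers of the second deposited transcript table, and the gene identifier beside it led to the gene table. All 42 were found among the 55536 GENCODE genes of that table, on 16 chromosomes. By role, 15 act in DNA synthesis, 13 in mitosis, 12 are cyclins or cyclin-dependent kinases (CDKs) and 2 are CDK inhibitors. The study is total RNA-seq of adrenal gland from female mice of the strain B6CASTF1/J, a first-generation cross of C57BL/6 and CAST/EiJ parents. Its 2 libraries, replicate 1 and replicate 2, form 1 group, so no condition can be compared and every difference below is between these libraries. The input was 300 ng of RNA for each, ribosomal RNA was reduced before a directional library kit was used, and ERCC spike-ins were added. The labels give both libraries the same donor and the same description of a library from 3 females, while the tissue of replicate 2 is labelled with a single numbered female. It is thus unclear whether separate animals were used, and the difference between the libraries may be a technical one.

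Cells enter the division cycle when cyclin D with Cdk4 or Cdk6, and then cyclin E with Cdk2, inactivate the retinoblastoma protein family and free E2F factors to activate the genes of DNA synthesis. Cyclin A and cyclin B with Cdk1 then drive the cell into mitosis, where the spindle, the kinetochores and the spindle checkpoint divide the chromosomes, while p21 and p27 hold CDKs back. The adrenal cortex grows after birth and renews itself from progenitors near the capsule, and chromaffin cells of the medulla also still divide early in life.

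Promoters of genes used late in the cycle are known for a short element called the cell cycle homology region (CHR), often beside CCAAT boxes bound by NF-Y, and those of DNA synthesis genes for E2F elements. The RefSeq promoter table (build GRCm38.p6) held windows of 300 bases, 250 before and 50 after the annotated start, for 35 of the 42 genes, in 38 windows. It had no entry for Aurkb, Ccna2, Ccnd1, Ccnd2, Ccne2, Gmnn or Mcm4. Of each window, up to the 160 bases before the start are shown for 3 mitosis genes, for Cdk1 and for 2 subunits of the replicative helicase, to show where the words described here lie. They were picked with their matches and differences known. Each is written 5′ to 3′ on the strand of the gene. Capitals mark a match on either strand to the CHR word TTTGAA or to 1 of the E2F words TTTCGCGC, TTTGGCGC, TTTCCCGC and TTTGCCGC. The stretch of Cdk1 is shorter because 26 bases next to the start lie in a GENCODE exon and were left out.
Mki67, chr7:135716380-135716539, minus strand: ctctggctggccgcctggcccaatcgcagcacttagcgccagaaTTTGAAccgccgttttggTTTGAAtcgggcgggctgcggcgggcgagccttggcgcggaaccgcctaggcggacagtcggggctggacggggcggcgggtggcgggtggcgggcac
Top2a, chr11:99024190-99024349, minus strand: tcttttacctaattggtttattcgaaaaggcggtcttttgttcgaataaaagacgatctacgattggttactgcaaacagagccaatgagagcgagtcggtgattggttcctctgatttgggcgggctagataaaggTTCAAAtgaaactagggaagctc
Kif11, chr19:37376222-37376381, plus strand: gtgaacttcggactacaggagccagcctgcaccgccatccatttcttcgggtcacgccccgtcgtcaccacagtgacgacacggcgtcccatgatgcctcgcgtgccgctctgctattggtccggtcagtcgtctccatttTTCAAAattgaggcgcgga
Cdk1, chr10:69352939-69353072, minus strand: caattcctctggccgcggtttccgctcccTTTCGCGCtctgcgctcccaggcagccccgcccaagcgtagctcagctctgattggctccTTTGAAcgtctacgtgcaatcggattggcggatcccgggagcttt
Mcm5, chr8:75109349-75109508, plus strand: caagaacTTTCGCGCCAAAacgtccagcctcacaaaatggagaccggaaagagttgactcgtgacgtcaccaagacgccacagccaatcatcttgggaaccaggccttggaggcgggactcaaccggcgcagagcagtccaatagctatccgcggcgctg
Mcm6, chr1:128359706-128359865, minus strand: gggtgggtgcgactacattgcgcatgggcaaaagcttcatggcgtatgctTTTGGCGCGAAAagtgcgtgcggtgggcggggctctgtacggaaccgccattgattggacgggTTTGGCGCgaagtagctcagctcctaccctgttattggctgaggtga

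Mki67, which encodes the proliferation antigen Ki-67, had CHR words starting 116 and 98 bases before its start. Top2a, the topoisomerase that untangles sister chromatids, had the word 23 bases before its start in the shown stretch and again 179 bases before it, outside that stretch. Kif11, a motor that pushes spindle poles apart, had it 19 bases before. Cdk1 held both kinds of word, E2F 131 bases and CHR 71 bases before its start, with a further CHR word 15 bases before it in the part left out. In Mcm5 and Mcm6, subunits of the Mcm2-7 helicase, words on opposite strands overlapped in 1 run of capitals each (153 and 149 bases before the start of Mcm5, 110 and 106 before that of Mcm6), and Mcm6 had another E2F word 47 bases before its start.

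Across the whole set, 9 of the 12 mitosis windows (75.0%) held the CHR word, against 1 of 14 windows of DNA synthesis genes (7.14%, Mcm2) and 17.9% of all 32851 promoters in the table. The other mitosis genes with the word were Aurka, Bub1b, Cdc20, Cenpa, Cenpf and Plk1, and among the cyclins and CDKs Ccnb2 had it as well as Cdk1. The word did not separate the mitosis genes by the calls given below: of the 9 with it, Aurka, Cdc20, Cenpa and Plk1 were not called, and Cenpe, Bub1 and Birc5, which have a window without it, were called lower. E2F words were in 6 of the 14 DNA synthesis windows (42.9%: Mcm3, Mcm5, Mcm6, Mcm7, Cdt1 and Cdc6), in those of Cdk1 and Cdk2, in 0 of the 12 mitosis windows, and in 2.26% of all promoters. The CCAAT box was in 68.4% of the windows of these genes and in 37.4% of all promoters. These shares have no test. A match is a description of letters and not a binding site, and a window without one says only that these letters are not in it. The windows are sequence of the reference build, and differences between the C57BL/6 and CAST/EiJ copies in these mice were not examined.

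**Figure D1:**
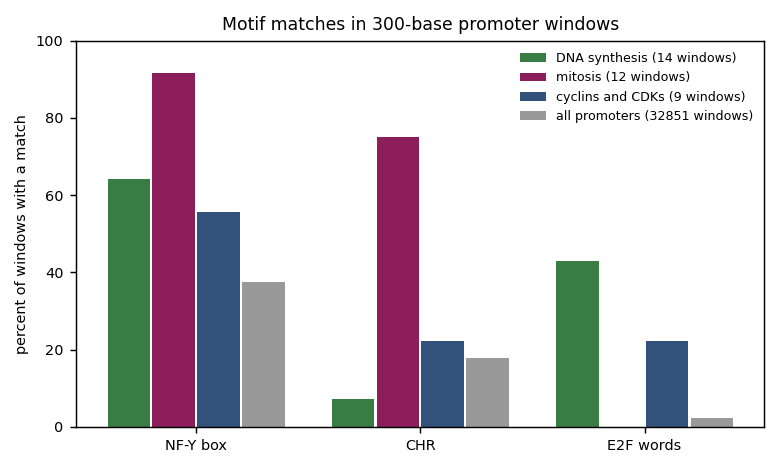
Percent of 300-base promoter windows with a match to the NF-Y box (CCAAT), the CHR word or an E2F word (y axis), for 3 groups of cell cycle genes and for all promoters of the RefSeq table. CHR matches are in 75.0% of mitosis windows and E2F matches in 42.9% of DNA synthesis windows, against 17.9% and 2.26% of all promoters.

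The libraries held 37586172 and 33844950 expected counts, and the 42 genes took 58988 and 36838 of them, or 0.157% and 0.109%. A gene with 0 counts could still make up 7.98e-06% of replicate 1 or 8.86e-06% of replicate 2, limits that cover counting error only. Markers of the adrenal cortex were present at a summed 8626 and 3733 TPM (the unit of the deposited gene table, read abundance per transcript length as a share of all transcripts) in replicates 1 and 2, and those of chromaffin cells at 1593 and 733 TPM. Markers of other tissues were present too and differed between the libraries. The 13 hepatocyte markers summed to 361 and 21404 TPM, all higher in replicate 2, and the 9 skeletal muscle markers to 24.8 and 507 TPM, all higher in replicate 2. The 15 thymocyte markers summed to 90.25 and 11.3 TPM, with all 14 tested lower in replicate 2. Of the 4 thymus epithelium markers, Prss16 and Psmb11 were at 1.02 and 0.15 TPM in replicate 1 and at 0 in replicate 2. Ccl25, the highest of these, was at 5.27 and 4.37 TPM in replicates 1 and 2, and Foxn1 at 0.13 and 0.02 TPM. The 9 erythroid markers summed to 5928 and 1794 TPM, with 8 lower and 1 not called. Most of both sums came from the globin genes Hbb-bs (2960 and 875 TPM) and Hba-a1 (2904 and 901 TPM). The 5 fat markers, all higher in replicate 2, summed to 2204 and 2454 TPM, more than the chromaffin markers. Which of the cells behind these markers were dividing was not measured. The part of these tissues in the results below was not tested, and in bulk tissue fewer cells of a type and less RNA per cell cannot be told apart.

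All 42 genes were at 1 TPM or more in both libraries. Their median level was 9.47 TPM in replicate 1 and 7.37 TPM in replicate 2 (mean 8.42 ± 1.49, SD, n = 2), above the medians of 2.05 and 1.89 TPM over all 22028 protein-coding genes and near the 9.22 and 7.67 TPM of protein-coding genes with at least 1 TPM. TPM was lower in replicate 2 for 40 of the 42, and higher for Tk1 and Cdk6. Because TPM is a share of the whole library, which includes the hepatocyte and muscle RNA above, differences between libraries are given below from scaled counts.

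At the top of the order were Cdk4, Ccnd3 and Ccnd2. Cdk4, a kinase partner of the D cyclins, was at 84.05 and 58.1 TPM in replicates 1 and 2. Ccnd3 was at 85.7 and 50.9 TPM, Ccnd2 at 58.5 and 37.9 TPM and Ccnd1 at 26.3 and 23.1 TPM. The 3 D cyclins kept the order Ccnd3, Ccnd2, Ccnd1 in both libraries, and Ccnd3 alone made up 50.3% and 45.5% of their summed TPM. The means of Cdk4 (71.1 ± 18.3) and Ccnd3 (68.3 ± 24.6) differed by less than their SD, and these genes changed places between the libraries. Pcna, the sliding clamp of the replication fork, followed Ccnd2 with 44.05 and 27.7 TPM, and was the highest of the DNA synthesis genes, above Ccnd1. In the second table Pcna was above Ccnd2 in both libraries (78.0 and 55.6 against 76.8 and 48.0 TPM). The other kinase of the D cyclins, Cdk6, was far lower at 6.76 and 7.43 TPM. The place of Cdk4 rests on transcripts not annotated as protein-coding. Its protein-coding transcripts were at 23.79 and 18.4 TPM, below those of Ccnd3 (81.5 and 48.9), Ccnd2 (48.4 and 29.5) and Pcna (42.4 and 27.1). Those of Ccnd1 were near equal in replicate 1 (23.92) and higher in replicate 2 (20.1). In the second table, the protein-coding transcripts of Cdk4 together were above that of Ccnd1 in both libraries (30.6 and 27.8 TPM). They were also above that of Pcna in replicate 2 (30.6 TPM).

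The mitosis genes had the lowest median level of the groups, 7.49 TPM in replicate 1 and 3.86 TPM in replicate 2 (5.67 ± 2.57, SD, n = 2). For the DNA synthesis genes the medians were 13.7 and 12.2 TPM, for the cyclins and CDKs 11.4 and 7.37 TPM, and for the CDK inhibitors 20.2 and 13.5 TPM. At the low end of the order were Ccne1, which starts DNA replication with Cdk2, at 3.26 and 2.04 TPM, the kinetochore motor Cenpe at 3.23 and 1.84 TPM, and the checkpoint kinase Bub1 at 2.97 and 1.81 TPM. Cdc6, which loads the helicase onto origins, was the lowest in both libraries at 1.76 and 1.04 TPM, and its level in replicate 2 was still at percentile 44.5 of all protein-coding genes. Neighbours in the middle of the order lay close together: Cdk2 (8.41 ± 1.56 TPM), Mcm4 (7.70 ± 1.48), Cdc20 (7.72 ± 1.89) and Birc5 (7.61 ± 2.58). Cdk2 was the highest of them in both libraries of the gene table (9.51 and 7.31 TPM), but below Birc5 in replicate 1 of the second table (12.0 against 13.9 TPM). Mcm4 (8.75 and 6.65 TPM), Cdc20 (9.06 and 6.39 TPM) and Birc5 (9.44 and 5.79 TPM) changed places between the libraries.

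**Figure D2:**
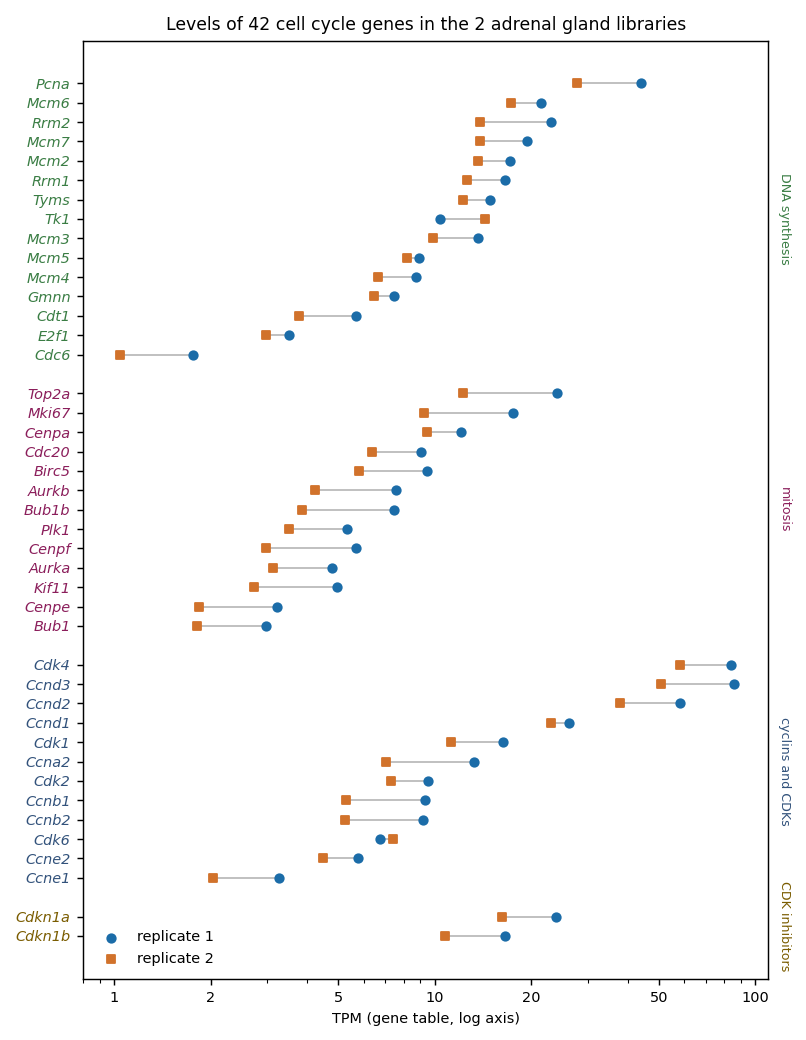
TPM of each of the 42 genes in replicate 1 (circles) and replicate 2 (squares) on a log axis, grouped by role and ordered by mean level within each group. Replicate 2 lies to the left for all genes except Tk1 and Cdk6, and Cdk4, Ccnd3 and Ccnd2 lie farthest to the right.

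To compare the libraries gene by gene, counts were put on 1 scale by TMM in edgeR and tested with an exact conditional binomial test, adjusted by the Benjamini-Hochberg method over 16153 genes. This test covers counting error only and compares the libraries, not conditions: with 1 sample of a kind on each side there is no replicate check. Of the 42 genes, 22 (52.4%) were lower in replicate 2 and 5 (11.9%) were higher, and 15 were not called. Over all genes tested, 24.4% were lower and 28.8% higher. The median log2 difference (replicate 2 over replicate 1) was -0.17 for the 42 genes and -0.001 over all genes. With TMM, only Tk1 passed 1.5-fold upwards and only Cenpe downwards (2.38% each), against 14.4% and 8.75% of all genes.

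The split between lower and higher depended on the scaling. With total counts, 36 were lower and 1 higher, while 58.3% and 14.0% of all genes were, and 19 passed 1.5-fold downwards and 0 upwards, against 24.9% and 8.96% of all genes. With ERCC counts, 35 were lower and 1 higher, while 52.8% and 15.7% of all genes were, and 15 passed 1.5-fold downwards and 0 upwards, against 20% and 9.69% of all genes. Higher calls thus made up 18.5% of the calls with TMM, and 2.70% and 2.78% with total and ERCC counts. These scalings moved the median of all genes to -0.34 and -0.28, so the differences given below are those relative to a median near 0. In the second table, 20 were lower and 5 higher, while 23.1% and 28.0% of its genes were, and 0 passed 1.5-fold downwards and 1 (Tk1) upwards, against 9.3% and 13.7% of its genes. Under every scaling of the counts and in the second table, 20 genes were called lower and 1, Tk1, higher. The share of all genes called in every setting is not given here. It cannot be above the 24.4% called lower with TMM or the 14.0% called higher with total counts. Since total and ERCC counts move all genes downwards, lower calls there are no separate check of those with TMM.

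Of the 13 mitosis genes, 9 were called lower in replicate 2 with TMM and 0 higher, where 24.4% of all genes were lower and 28.8% higher. All 13 had log2 differences below 0 with TMM. Total-count and ERCC scaling moved the median of all genes to -0.34 and -0.28, so these genes are below 0 there by construction. The median difference of the mitosis genes with TMM was -0.41. Ki-67 RNA (Mki67) had 5907 counts in replicate 1 and 2933 in replicate 2, or 17.5 and 9.24 TPM. Its difference was -0.52 (95% counting interval -0.58 to -0.45, exact test, adjusted p = 2.74e-57), which is 1.43-fold. Top2a was at 24.0 and 12.3 TPM (-0.42, -0.51 to -0.33, exact test, adjusted p = 2.77e-19). Replicate 1 was thus the higher library for both genes by more than counting error.

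Among the kinetochore genes, Cenpe had 765 and 355 counts and the lowest difference of all 42 genes (-0.61, interval -0.80 to -0.43, 1.53-fold, exact test, adjusted p = 8.03e-11). Cenpf, a large outer kinetochore protein, had 1461 and 756 counts (-0.46, exact test, adjusted p = 4.89e-12). Cenpa, the histone H3 variant that marks the centromere, had 550 and 389 counts and a difference of -0.01 (interval -0.20 to 0.18), which was not called. The checkpoint kinases Bub1 and Bub1b were lower, with differences of -0.44 and -0.33. So were Aurkb and Birc5, the kinase and the survivin subunit of the chromosomal passenger complex, at -0.41 and -0.32, and Kif11 at -0.42. The intervals of 3 more genes reached past 0: the spindle pole kinase Aurka (286 and 168 counts, -0.27, -0.56 to 0.01), Cdc20, the activator of the anaphase-promoting complex (524 and 326 counts, -0.19, -0.40 to 0.01), and the mitotic kinase Plk1 (370 and 244 counts, -0.11, -0.35 to 0.13). The 13 marker lists went both ways, and their part was not tested. Their median log2 differences were -5.21 for thymus epithelium, -4.58 for thymocyte and -1.55 for erythroid markers. They were -0.80 for adrenal cortex, -0.71 for chromaffin, 0.03 for B lymphocyte, 0.07 for endothelium and 0.43 for Schwann and sustentacular markers. For fat, capsule and stroma, macrophage, skeletal muscle and hepatocyte markers they were 0.66, 0.83, 0.895, 4.76 and 6.32.

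DNA synthesis genes went both ways with TMM scaling, as did all genes tested. Of the 15, 5 were lower, 3 higher and 7 not called, where 24.4% of all genes were lower and 28.8% higher. The median difference of the group was -0.001, the same as over all genes. Whether this group differs from the mitosis genes was not tested. Tk1, the thymidine kinase of the salvage pathway, went most clearly against the other genes. It had 436 counts (10.4 TPM) in replicate 1 and 547 (14.3 TPM) in replicate 2, in the smaller library. Its difference of 0.82 (interval 0.64 to 1.01, 1.77-fold, exact test, adjusted p = 5.51e-18) stayed above 0 with total counts (0.48) and ERCC counts (0.54). The exons of Tk1 share 83 of 5198 bases (1.60%) with Afmid on the other strand, which had 185 and 756 counts and a difference of 2.52. The sources used here do not say whether the counting used strand, and the part of Afmid was not tested.

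The 6 subunits of the Mcm2-7 helicase, which form 1 ring, were at unequal levels: Mcm6 was the highest at 21.4 and 17.3 TPM and Mcm4 the lowest at 8.75 and 6.65 TPM, which is 2.45-fold and 2.59-fold. In the second table the fold was 3.13 and 3.26, and Mcm7 was above Mcm6 in replicate 1 (33.6 against 30.0 TPM) and below it in replicate 2 (26.2 against 29.0 TPM). Their differences between the libraries were also unequal. With TMM, Mcm5 (807 and 682 counts, 0.25, exact test, adjusted p = 0.00242) and Mcm6 (1995 and 1621 counts, 0.19, exact test, adjusted p = 0.000198) were called higher, but both were below 0 with total counts (-0.09 and -0.15) and ERCC counts (-0.03 and -0.08). Mcm2 (1665 and 1073 counts, -0.14) and Mcm3 (1340 and 862 counts, -0.14) were called lower, but not in the second table (-0.12 and -0.06). Mcm4 and Mcm7 had differences of 0.03 and -0.001 and were not called.

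The other genes called lower in this group provide the fork and its nucleotides. Pcna had 2121 and 1284 counts (-0.23, interval -0.33 to -0.13, exact test, adjusted p = 2.09e-05). Ribonucleotide reductase makes deoxynucleotides, and its subunits Rrm2 (1599 and 904 counts) and Rrm1 (1963 and 1251 counts) had differences of -0.33 and -0.16. Tyms, which makes thymidylate de novo, was at 14.9 and 12.2 TPM with a difference of 0.04 (interval -0.16 to 0.24) and was not called. The genes that license origins were not called either: Cdc6 had 180 and 100 counts (-0.35, -0.72 to 0.01), Cdt1, which loads the helicase with it, 376 and 259 counts (-0.04, -0.28 to 0.19), and geminin (Gmnn), which inhibits Cdt1, 212 and 184 counts (0.29, -0.004 to 0.58). The transcription factor gene E2f1 had 319 and 259 counts (0.19, -0.05 to 0.43). The interval of Cdc6 included the median difference of the mitosis genes (-0.41), and those of Cdt1, Gmnn and E2f1 lay above it.

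**Figure D3:**
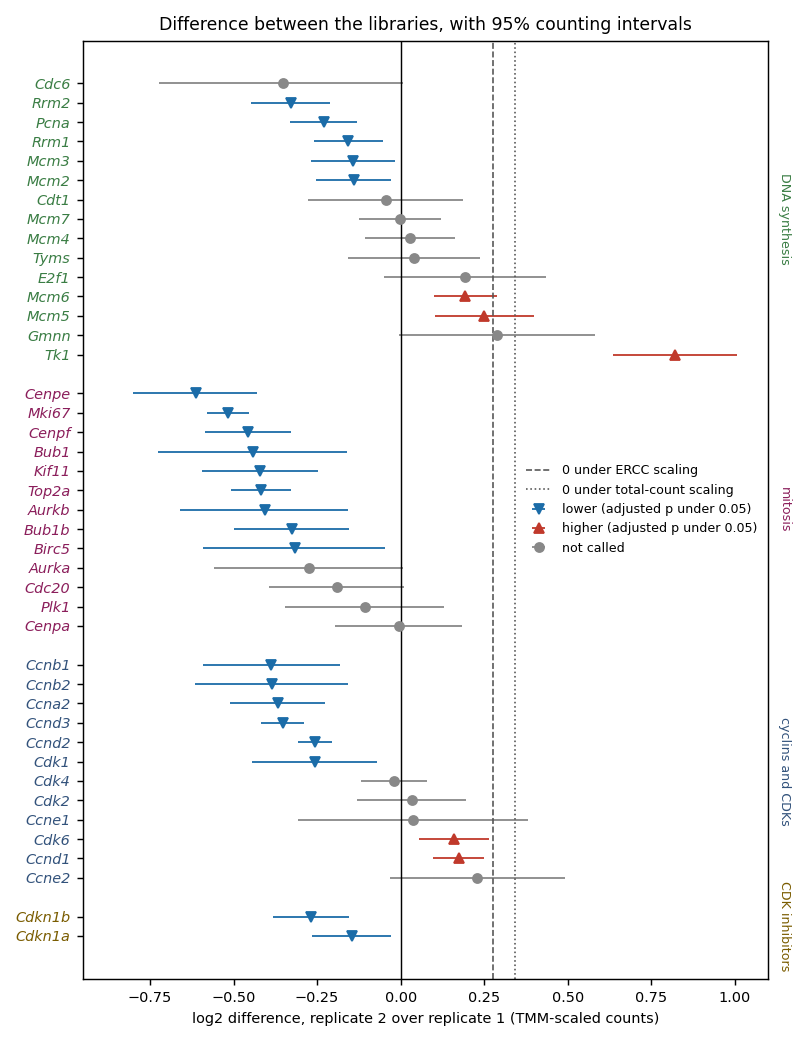
Log2 difference of TMM-scaled counts, replicate 2 over replicate 1, for each gene (points) with its 95% counting interval (lines), and the points that 0 would take under ERCC and total-count scaling (dashed and dotted lines). Every mitosis gene lies left of 0, the DNA synthesis genes lie on both sides, and only the interval of Tk1 lies wholly to the right of all 3 lines.

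Of the 12 cyclins and CDKs, 6 were lower with TMM, 2 higher and 4 not called, where 24.4% of all genes were lower and 28.8% higher. The median difference of this group was -0.14. The mitotic cyclins were lower in replicate 2: Ccnb1 had 559 and 304 counts (-0.39, exact test, adjusted p = 0.000504) and Ccnb2 454 and 247 counts (-0.38, exact test, adjusted p = 0.00196). Ccna2, the cyclin of S and G2 phase, had 1141 and 628 counts (-0.37, exact test, adjusted p = 9.87e-07), and Cdk1, their kinase, 629 and 374 counts (-0.26, exact test, adjusted p = 0.0148). These 4 genes were called lower under every scaling and in the second table. The E cyclins and their kinase Cdk2 were not called with TMM: Ccne1 had 170 and 124 counts (0.04, interval -0.31 to 0.38), Ccne2 269 and 224 (0.23, -0.03 to 0.49) and Cdk2 732 and 532 (0.03, -0.13 to 0.20). Their differences were below 0 with total and ERCC counts.

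The D cyclins did not move as 1 group. Ccnd3 (5573 and 3100 counts, -0.35, interval -0.42 to -0.29, exact test, adjusted p = 3.31e-27) and Ccnd2 (8298 and 4934 counts, -0.26, -0.31 to -0.21, exact test, adjusted p = 2.28e-22) were lower in replicate 2. Ccnd1 (3059 and 2450 counts) was called higher with TMM (0.17, interval 0.10 to 0.25, exact test, adjusted p = 3.56e-05) but was below 0 with total counts (-0.17) and ERCC counts (-0.11). Its share of the summed TPM of the 3 D cyclins was 15.4% in replicate 1 and 20.6% in replicate 2, and this share does not depend on the scaling. Ccnd1 and LTO1, on the other strand, share 23.4% of the exon bases of Ccnd1, and LTO1 was not called (0.15). Of the kinases that bind D cyclins, Cdk4 (2064 and 1446 counts) had a difference of -0.02 and was not called, and Cdk6 (1675 and 1329 counts) was called higher with TMM (0.16, exact test, adjusted p = 0.00655) but was below 0 with total counts (-0.18) and ERCC counts (-0.12). Capsule and stroma markers summed to 327 and 434 TPM, with 5 of 7 higher in replicate 2. Macrophage markers summed to 35.1 and 49.9 TPM, with 7 of 8 higher. Adrenal cortex and chromaffin markers went the other way, with 8 of 9 and 7 of 8 lower. The part of these and the other marker lists in the D cyclins and their kinases was not tested.

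Both CDK inhibitors were lower in replicate 2. Cdkn1b, which encodes p27, had 1718 and 1014 counts, or 16.6 and 10.8 TPM (-0.27, interval -0.38 to -0.15, exact test, adjusted p = 1e-05). Cdkn1a, which encodes p21, a target of p53, had 1482 and 951 counts, or 23.9 and 16.2 TPM (-0.15, -0.27 to -0.03, exact test, adjusted p = 0.0303). The 2 genes kept their ratio, with Cdkn1a 1.44-fold and 1.5-fold above Cdkn1b by TPM.

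Other genes of the cell cycle, from 3 lists of 111 genes that hold none of the 42, were counted by phase in the same way. Of 42 further genes of G2 and mitosis, 33 (78.6%) were lower in replicate 2, 2 (4.76%) higher and 7 not called, with a median difference of -0.35, where 24.4% of all genes were lower and 28.8% higher. With total counts 40 (95.2%) were lower and 0 higher, and with ERCC counts 40 and 1, where 58.3% and 52.8% of all genes were lower. Tmpo, a nuclear lamina protein (-0.20), the histone chaperone gene Anp32e (-0.18), the Cdk1 phosphatase Cdc25c (-0.73) and the spindle protein Nusap1 (-0.62) were among the lower ones. The 2 higher ones with TMM were Cks2, a CDK subunit (9.80 and 10.6 TPM, 0.54), and Hjurp, the chaperone of the Cenpa protein (19.5 and 19.8 TPM, 0.39). Of 37 further S phase genes, 9 (24.3%) were lower, 5 (13.5%) higher and 23 not called, with a median of -0.08, so the lower share was that of all genes. With total and ERCC counts 24 (64.9%) and 21 (56.8%) were lower and 2 higher. The uracil glycosylase gene Ung (179 and 207 counts, 0.70) was among the higher ones, and Cdc45 (-0.61) and Dtl (-0.54) had the lowest differences. Of 31 regulators tested, 16 (51.6%) were lower, 1 (3.23%) higher and 14 not called, with a median of -0.21. With total and with ERCC counts 27 (87.1%) were lower and 0 higher. Myc (1540 and 669 counts, -0.71) and E2f2 (612 and 277 counts, -0.65) had the lowest differences among them. Cdkn1c, which encodes the inhibitor p57, was at 119 and 96.7 TPM, above all 42 genes in both libraries, with a difference of 0.001 that was not called.

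**Figure D4:**
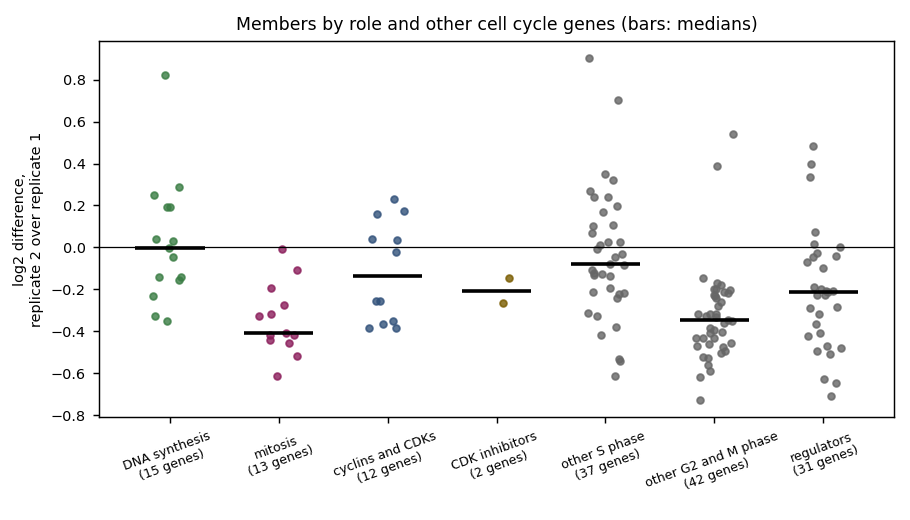
Log2 difference, replicate 2 over replicate 1, of TMM-scaled counts (y axis) for each of the 42 genes by role and for the genes of 3 further cell cycle lists (points), with the median of each list (bars). The medians of the mitosis and the other G2 and M phase genes lie at -0.41 and -0.35, and those of the DNA synthesis and the other S phase genes at -0.001 and -0.08.

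Ratios within a library are free of the scaling between libraries, and 10 pairs were compared by TPM. With 2 libraries no exact test can reach 0.05, so mean and SD are given. Cdk4 was 12.3-fold and 7.73-fold above Cdk6 (log2 3.28 ± 0.47, SD, n = 2). Ccnd3 and Ccnd2 were above Ccnd1 by log2 1.42 ± 0.40 and 0.93 ± 0.31. Cdk1 was above Cdk2 by 0.70 ± 0.11, and Aurkb above Aurka by 0.54 ± 0.15. Ccnb1 and Ccnb2 were at near equal levels in both libraries (0.02 ± 0.01), with the sign turned in the second table (-0.07). Ccne1 was below Ccne2 (-0.95 ± 0.21). Gmnn was above Cdt1 by 0.58 ± 0.26 and by 1.03 in the second table. Rrm2 was above Rrm1 by 0.30 ± 0.24 in the gene table, but below it in the second table (-0.22), where Rrm1 was at 2.10-fold its level in the gene table.

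The first transcript table estimates how these levels are split over annotated transcripts, and the second table splits some of them otherwise. Ccnb1-202, for example, led Ccnb1 with 43.5% and 38.3% of its TPM in the first table and was at 0 in the second. The 42 genes have 238 annotated transcripts, from 1 (Ccnb2) to 21 (Ccnd3), and 35 genes had at least 50% of their TPM on a single transcript in both libraries. For Mki67 this was Mki67-201 with 97.8% and 96.4%, for Pcna Pcna-201 with 96.2% and 97.9%, and for Ccnd3 Ccnd3-205 with 87.7% and 88.2%. The second table gave these transcripts smaller shares: 80.1% and 80.3% for Mki67-201, 55.8% and 55.1% for Pcna-201, and 47.4% and 33.4% for Ccnd3-205, with Ccnd3-218 leading in replicate 2 at 37.3%. There, 30 genes had at least 50% on a single transcript. In the first table the leading transcript was the same in both libraries for all 42 genes, and for 37 the second table had the same leading transcript by mean TPM. In 4 genes the leading transcript was not annotated as protein-coding. For Cdk4 it was Cdk4-209, a retained-intron transcript of 468 bases with 38.1% and 38.4% of the TPM. Tyms-205, a nonsense-mediated decay transcript of 618 bases, had 45.7% and 49.5% of the TPM of Tyms, and Cenpa-202, of the same class, 35.7% and 48.9% of that of Cenpa. Ccne2-205, a processed transcript of 432 bases, had 51.2% and 48.4% of the TPM of Ccne2. Cdk4-209 and Tyms-205 also led in the second table, but the other 2 did not. There Ccne2-205 had 16.4% and 25.1% and Ccne2-204 led with 46.8% and 35.2%. Cenpa-202 had 14.9% and 29.9%, and Cenpa-201 led by mean TPM with 25.2% and 21.2%.

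Summed over all transcripts not annotated as protein-coding, the share was 77.9% and 87.3% for Cenpa, 71.7% and 80.7% for Tyms, 71.7% and 68.3% for Cdk4, and 60.7% and 52.2% for Ccne2. The median over the 42 genes was 8.99% in replicate 1 and 8.34% in replicate 2. In the second table Cenpa (76.4% and 84.7%), Ccne2 (79.6% and 67.5%) and Cdk4 (70.8% and 64.1%) stayed above the other genes. Tyms was less distinct there: its share was 57.0% and that of Rrm1 58.8% in replicate 2 (59.1% and 46.1% in replicate 1). The share of Pcna was 44.2% and 44.9%. Counted on protein-coding transcripts alone, an alternative chosen after the values were seen, Cdk4 was 3.55-fold and 2.48-fold above Cdk6, and the sign of Ccne1 against Ccne2 turned (0.13). Exons of Cdk4 share 641 bases (19.7% of its exon bases) with Tspan31 on the other strand, which had 1413 and 1336 counts and a difference of 0.41. How short fragments of the kind of Cdk4-209 enter the estimate was not tested.

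**Figure D5:**
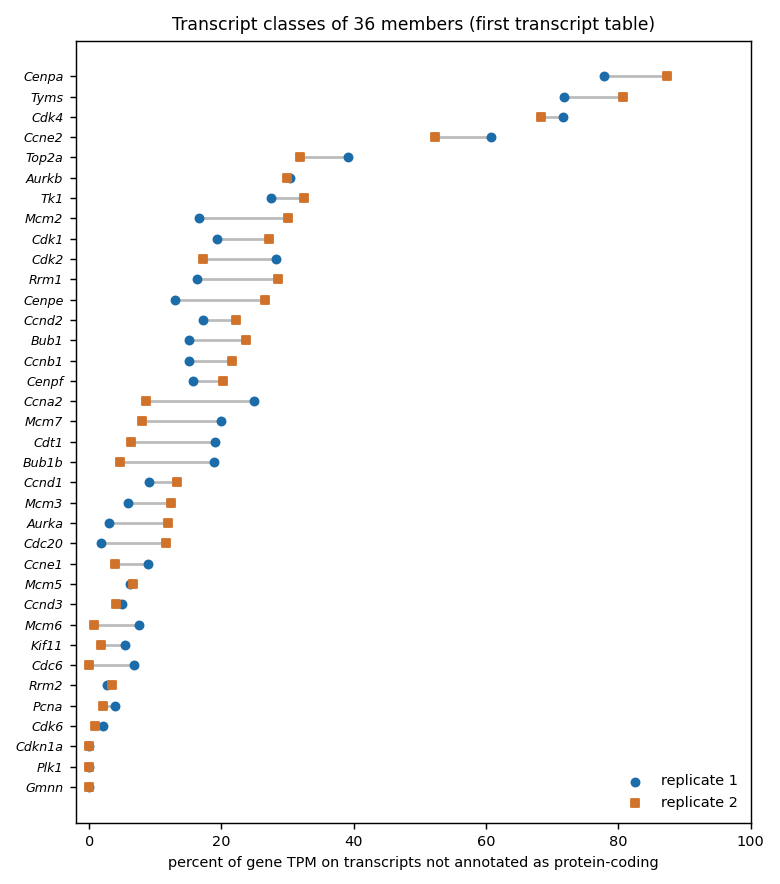
Percent of each gene's TPM on transcripts not annotated as protein-coding (x axis) in replicate 1 (circles) and replicate 2 (squares), for the 36 genes that have such transcripts. Cenpa, Tyms, Cdk4 and Ccne2 lie above 50% in both libraries of this table.

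Few reads of these genes were shared with other genes. Expected counts were whole to 2 decimals in both libraries for 36 of the 42, and the 6 others were Pcna, Mcm7, Rrm2, Cdc20, Cenpe and Ccnb1. The deposited posterior SD was at most 1.76% of the count among these, for Ccnb1 in replicate 2, and 0.53% and 0.70% for Pcna. In 14 genes some exon bases are shared with another annotated gene, in 13 of them on the other strand. Besides the pairs given above, Ccne2 shares 17.4% of its exon bases with Ints8 and Ccna2 12.5% with Exosc9, and neither partner was called (-0.12 and -0.07).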

How the data were processed

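Total RNA-seq was analysed in 1 group of 2 libraries, with replicate numbers taken from the labels. A text file with each sample names mm10 as the assembly and M21 as the GENCODE release. The sources used here do not name the tools that made the tables or say whether counting used strand. As the file headers show, expected counts and TPM by the authors stand in 2 tables, 1 of genes and 1 of transcripts. The deposited transcript table adds the percent of its gene's TPM that each transcript takes, and the gene table a posterior standard deviation of each count. The second deposited transcript table holds the authors' estimated counts and TPM, which were summed to genes.

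The 42 genes, the gene lists and the pairs were chosen with earlier results of these data known. All 42 may be named. Of other lists, the 3 genes of highest mean TPM and the 2 of the largest difference either way may be named, except 1 that is not reported here. Gene coordinates and exon overlaps came from the GENCODE annotation, and promoters from the RefSeq table of GRCm38.p6.

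Expected counts were rounded and scaled with TMM (edgeR 4.0.16, R 4.3.3). Nuclear genes whose count averaged 20 or more entered a two-sided exact conditional binomial test (scipy 1.17.1), called at a Benjamini-Hochberg adjusted p under 0.05 and tested on simulated data. A test with replicates could not be made, since there is 1 group. Log2 differences use a prior count of 0.5, intervals are Clopper-Pearson at 95%, pair ratios use TPM + 0.1, and a count of 0 allows 3 counts. Alternatives covered DESeq2 1.42.0 size factors, total and ERCC counts, count minimums, TPM scales, the second table, transcript class and leaving out each replicate.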

Additional observations from a re-analysis of the deposited data

How the results depend on the processing

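With total counts 36 of the 42 genes were lower in replicate 2 and 1 higher, against 58.3% and 14.0% of all genes. With ERCC counts 35 and 1 were, against 52.8% and 15.7% of all genes. Past 1.5-fold (chosen after the values were seen), 19 were lower and 0 higher with total counts, 15 and 0 with ERCC counts, and 0 and 1 in the second table. DESeq2 size factors and minimums of 1 or 50 counts kept every call count within 1.5 times. The median log2 difference with total counts, ERCC counts, log2(TPM + 1) and log2(TPM + 0.1) was -0.52, -0.45, -0.49 and -0.58 for all 42 genes, -0.34, -0.28, -0.35 and -0.39 for DNA synthesis, -0.75, -0.69, -0.62 and -0.78 for mitosis, -0.48, -0.42, -0.51 and -0.58 for cyclins and CDKs, and -0.55, -0.48, -0.56 and -0.59 for the CDK inhibitors. Median TPM in the second table was 12.6 for all, 17.7 for DNA synthesis, 13.3 for cyclins and CDKs and 22.5 for the CDK inhibitors. Without 1 replicate, median TPM ran from 7.37 to 9.47 for all, 12.2 to 13.7 for DNA synthesis, 3.86 to 7.49 for mitosis, 7.37 to 11.4 for cyclins and CDKs and 13.5 to 20.2 for the inhibitors, and 36 to 37 genes had at least 50% of TPM on 1 transcript.

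Of the pair ratios, Ccne1/Ccne2 was -1.46 in the second table and 0.13 on protein-coding transcripts (chosen after the values were seen), Ccnb1/Ccnb2 -0.075 and -0.27, and Rrm2/Rrm1 -0.22 and 0.62. Gmnn/Cdt1 was 1.03 in the second table. On protein-coding transcripts Cdk4/Cdk6 was 1.57 and Aurkb/Aurka 0.14.

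Differences that turned below 0, with total counts, ERCC counts and log2(TPM + 0.1), were Mcm4 (-0.31, -0.25, -0.39), Mcm5 (-0.092, -0.028, -0.12), Mcm6 (-0.15, -0.084, -0.31), Tyms (-0.30, -0.24, -0.28, and -0.12 in the second table), E2f1 (-0.15, -0.085, -0.23), Ccne1 (-0.30, -0.24, -0.65), Ccne2 (-0.11, -0.049, -0.36), Ccnd1 (-0.17, -0.11, -0.19) and Cdk2 (-0.31, -0.24, -0.38). Gmnn was -0.053 with total counts and -0.20 by TPM, and Cdk6 -0.18 and -0.12 with total and ERCC counts. Mcm7 was 0.03 in the second table. The shift of all genes under total and ERCC counts, -0.34 and -0.28, accounts for those signs by construction; for the other changes the cause was not tested. No paired analysis was possible because there is 1 group. The depth gave the median gene a counting interval of ± 0.17 on the log2 scale, and smaller differences were often not detectable.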
